A study of Saccharomyces cerevisiae with 9 samples.

Results

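The hydrophilin and stress protein genes described here are HSP12, GRE1, SIP18, STF2, DDR2 and DDR48 of the budding yeast Saccharomyces cerevisiae, 6 of the 7126 annotated features in the deposited tables. They were taken by their systematic names from a list of hydrophilin and stress proteins, chosen with earlier results of these data known. The data are RNAseq libraries of the haploid strain BY4742 (MATα his3Δ1 leu2Δ0 lys2Δ0 ura3Δ0), grown in YPD for 48 h at 25 °C to the stationary phase. There are 3 libraries of unheated control cells, 3 of cells given a heat ramp and 3 of cells given a heat shock, from 3 independent cultures. Both treatments took cells from 25 °C up to 50 °C, held them there for 30 min and returned them quickly to 25 °C. They differed in speed, which was 0.5 °C per min for the heat ramp and 50 °C per min for the heat shock. The slower ramp also took longer, so that speed and total time of heating cannot be told apart. The 3 cultures are all of this 1 strain, and each gave a sample of every group.

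Hydrophilins are small proteins rich in glycine and very hydrophilic, which stay largely unfolded in solution and are produced by many organisms when cells lose water. In yeast, genes of this kind are induced by osmotic stress, heat, glucose exhaustion and entry into the stationary phase, largely through the transcription factors Msn2 and Msn4, which bind the stress response element (STRE), and through the Hog1 osmotic stress kinase. HSP12 encodes a membrane-associated protein that folds on lipids and stabilises membranes. GRE1 and SIP18 encode hydrophilins linked to survival of drying and rewetting, and they are paralogs from the whole genome duplication. STF2 encodes a protein that binds the mitochondrial ATP synthase and protects desiccated cells, DDR2 encodes a small protein induced by many stresses, and DDR48 encodes an asparagine- and serine-rich protein induced by heat and by DNA damage.

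In stationary cells warmed slowly, HSP12 rose 14.0-fold over the control and STF2 10.4-fold, DDR2 rose 4.58-fold and DDR48 2.78-fold, while GRE1 fell 3.63-fold and SIP18 2.01-fold. In cells heated abruptly, SIP18 fell 8.80-fold, GRE1 3.07-fold, STF2 2.87-fold and HSP12 1.95-fold, and DDR2 and DDR48 did not pass the test, although DDR48 was higher with the culture as a block. These folds use the authors' size factors. Under total count scaling the log2 fold changes of the heat ramp were 2.89 for HSP12, 2.46 for STF2, 1.28 for DDR2, 0.56 for DDR48, -2.78 for GRE1 and -1.93 for SIP18, all still called.

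The label hydrophilin was checked against the encoded proteins, translated from the coding sequences of the R64 reference genome. A usual definition asks for at least 6% glycine and a mean Kyte-Doolittle hydropathy of -1 or lower, where negative values are hydrophilic. Of 5988 proteins, 75 (1.25%) met both limits, and 5 of the 6 genes were among them. DDR48 (430 residues, mean hydropathy -1.96, 11.4% glycine) ranked 3 of all these proteins for hydrophilicity, and GRE1 (168 residues, -1.85, 13.1% glycine) ranked 4. STF2 (84 residues, -1.61, 11.9% glycine), SIP18 (79 residues, -1.55, 12.7% glycine) and HSP12 (109 residues, -1.21, 11.9% glycine) also met the definition. DDR2 (61 residues) did not, since its mean hydropathy was 0.76 with 9.84% glycine, against a median of -0.39 and 4.94% over all proteins. By sequence DDR2 is therefore a hydrophobic small protein, and it is described here as a stress protein only. None of the 6 proteins contains cysteine. DDR48 holds 11 exact copies of the octapeptide NNNDSYGS, and inexact copies were not counted.

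**Figure D1:**
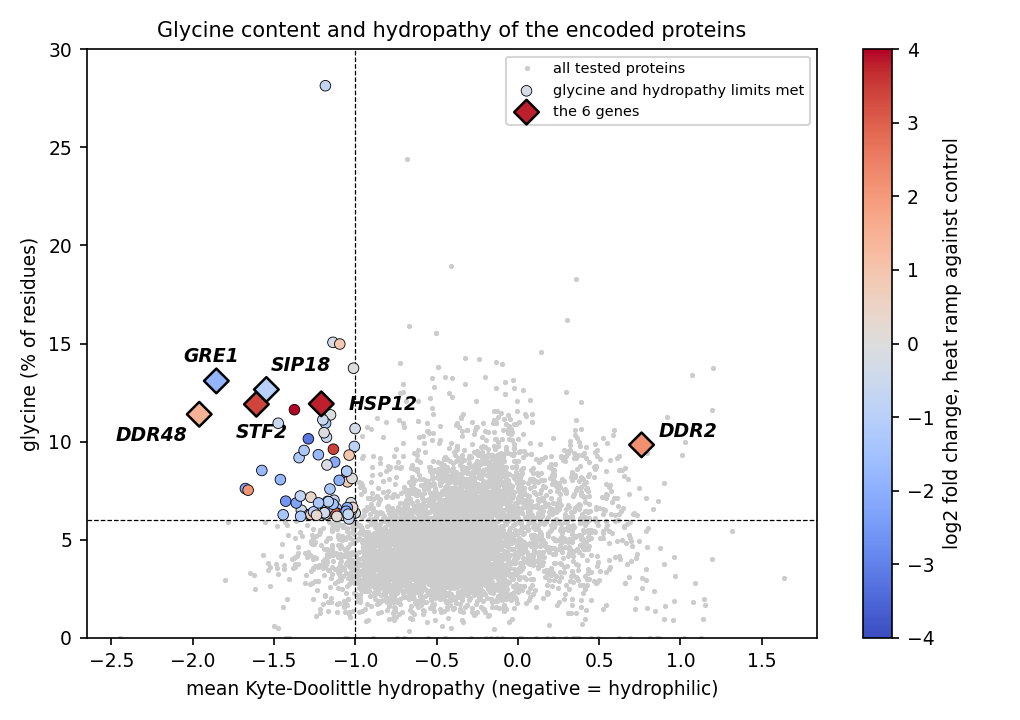
Glycine content in percent of residues (vertical axis) against mean Kyte-Doolittle hydropathy (horizontal axis) of the proteins encoded by tested genes, with dashed lines at 6% and -1. Colour gives the heat ramp log2 fold change for the proteins that meet both limits and for the 6 genes (diamonds), 5 of which lie in the upper left field while DDR2 lies at 0.76 on the horizontal axis.

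The 6 genes are each a single coding exon. In the R64 assembly HSP12 (YFL014W) lies on chromosome VI from 107256 to 107585, GRE1 (YPL223C) on chromosome XVI from 128632 to 129138, STF2 (YGR008C) on chromosome VII from 508110 to 508364 and DDR2 (YOL052C-A) on chromosome XV from 231570 to 231755. DDR48 (YMR173W, 608689 to 609981) and SIP18 (YMR175W, 611016 to 611255) are near neighbours on chromosome XIII, with only PAI3, which encodes an inhibitor of the vacuolar protease A, between them in that annotation. No feature of the R64 annotation overlaps any of the 6 genes, but only 6048 of the 7126 deposited features have a position there. Stretches of 50 bases, the full length of a read, were never shared between their coding sequences and another annotated coding sequence. The longest shared coding run was 24 bases for DDR2 and its paralog HOR7. It was 12 for STF2 and its paralog TMA10 and 9 for GRE1 and SIP18. Shorter trimmed reads, alignments with mismatches and untranslated regions were not checked. How well the alignment told reads of paralogs apart was therefore not tested.

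Promoter sequences of HSP12 and DDR2, which rose in the heat ramp, and of GRE1 and SIP18, which fell in both treatments, are shown because those of HSP12 and DDR2 hold the STRE in this window and those of GRE1 and SIP18 do not. TMA10 and HOR7, paralogs of STF2 and DDR2 that also rose in the heat ramp, have no STRE in it. Within this window the motif thus does not divide the genes by direction. Over the 600 bases before the start TMA10 held 2 STREs and HOR7 held 3, the nearest of HOR7 beginning 251 bases before it. Each sequence shown runs from 250 bases before to 50 bases after the annotated start of the coding sequence. It is written 5′ to 3′ on the strand of the gene, from the R64 genome of RefSeq. Capitals mark the STRE, AGGGG on either strand.
HSP12, chrVI:107006-107305, forward strand: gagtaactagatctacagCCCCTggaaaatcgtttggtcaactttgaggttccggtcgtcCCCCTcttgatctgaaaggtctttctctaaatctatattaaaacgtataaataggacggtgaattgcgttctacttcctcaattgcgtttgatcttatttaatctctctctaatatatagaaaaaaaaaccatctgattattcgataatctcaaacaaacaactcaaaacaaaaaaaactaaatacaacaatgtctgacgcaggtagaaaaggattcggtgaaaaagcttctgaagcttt
DDR2, chrXV:231706-232005, reverse strand: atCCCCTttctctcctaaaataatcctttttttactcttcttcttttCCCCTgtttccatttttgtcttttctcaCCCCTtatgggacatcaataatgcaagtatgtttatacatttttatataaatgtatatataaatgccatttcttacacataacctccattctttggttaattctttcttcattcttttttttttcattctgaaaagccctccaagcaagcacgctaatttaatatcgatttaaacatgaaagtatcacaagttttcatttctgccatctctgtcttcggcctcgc
GRE1, chrXVI:129089-129388, reverse strand: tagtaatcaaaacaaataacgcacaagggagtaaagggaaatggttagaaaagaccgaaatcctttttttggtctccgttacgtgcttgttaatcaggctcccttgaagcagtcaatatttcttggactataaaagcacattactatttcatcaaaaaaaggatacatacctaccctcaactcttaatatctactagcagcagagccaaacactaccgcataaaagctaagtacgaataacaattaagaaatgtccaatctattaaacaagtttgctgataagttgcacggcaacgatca
SIP18, chrXIII:610766-611065, forward strand: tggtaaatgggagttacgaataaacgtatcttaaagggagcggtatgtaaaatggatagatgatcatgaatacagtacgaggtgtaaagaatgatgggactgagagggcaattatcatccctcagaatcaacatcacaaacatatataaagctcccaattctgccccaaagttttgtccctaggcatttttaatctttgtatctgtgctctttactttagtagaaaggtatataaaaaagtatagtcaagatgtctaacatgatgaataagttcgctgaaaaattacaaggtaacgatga

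Motifs were searched on both strands. In this window HSP12 held 2 STREs, beginning 232 and 190 bases before the start, and DDR2 held 3, at 248, 203 and 175 bases. STF2 held 1 at 189 bases and DDR48 held 1 at 148 bases, while GRE1 and SIP18 held none. Among the promoters of 5987 protein-coding genes, 21.6% had at least 1 STRE, 2.94% at least 2 and 0.484% at least 3. DDR48 was the only one of the 6 with the core of a heat shock element, TTCNNGAA, 96 bases before the start, a motif that 12.9% of the promoters held. The post-diauxic shift element, TTAGGGAT or TAAGGGAT, was in none of the 6 in this window and in 1.59% of the promoters. Over the 600 bases before the start the order changed, with 5 STREs for HSP12, 4 for DDR2, 3 for SIP18, 2 each for STF2 and DDR48 and still none for GRE1, where 39.7% of the promoters had at least 1. GRE1 held a post-diauxic shift element there, 548 bases before the start, as 3.06% of the promoters did. A match to these letters is a description and was not tested for binding.

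Levels are given as the authors' normalized counts, in which read counts are divided by a size factor set for each library. Between 22579312 and 27233289 reads were counted in a library, and the lowest read count of any of the 6 genes was 412, for SIP18 in heat shock replicate 1, against a limit of detection of 3 reads that covers counting error only. Replicates differed by more than counting noise in every group (chi-square over its degrees of freedom, 23.6 to 226). The strain was checked by its markers. LEU2, URA3 and LYS2, which BY4742 lacks, had 0 reads in every library, which allows up to 3 reads in each. The 3 MATα genes MF(ALPHA)1, MF(ALPHA)2 and STE3 summed to between 16794 and 19116 normalized counts in control, 6650 to 7776 in ramped and 20197 to 28895 in shocked cells. The 4 MATa genes MFA1, MFA2, STE2 and BAR1, which should be low in a MATα strain, were not at 0. Their sums were 2227 to 3213, 702 to 1234 and 5248 to 5712 in the same order. The marker check thus did not settle the mating type, and the part of these genes in the results below was not tested. All of these are levels in bulk RNA, so that fewer cells with a transcript and less of it per cell cannot be told apart.

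The heat ramp was compared with the control to see which of these genes change when cells reach 50 °C slowly. With limma, on log2(normalized count + 1) of 6847 features, all 6 genes passed a Benjamini-Hochberg adjusted p-value of 0.05, 4 higher and 2 lower, but 78.5% of all features also passed, 39.0% higher and 39.5% lower. None of the 6 overlapped between the groups, and neither did 80.8% of all features. Scaling each library to its total count instead moved the median of all features by -0.91 and gave 1326 higher and 4384 lower, against 2670 and 2705. The median log2 fold change was 1.83 for the 6 genes and -0.01 for all features. A log2 fold change of at least 3 upward, past the same threshold, was reached by HSP12 and STF2 and by 6.31% of all features.

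HSP12 had 29833, 34666 and 31270 normalized counts in control replicates 1 to 3. In the ramp libraries it had 404671, 419294 and 521638, so that the lowest ramp library lay far above the highest control library. Its log2 fold change was 3.81 (standard error 0.19, limma adjusted p = 7.72e-10), which ranked 220 of 6847. In the unheated cells HSP12 was already among the most abundant transcripts. Per kb of coding sequence it ranked 10 of 5988 protein-coding genes in each control library, and it ranked from 3 to 5 after the heat ramp. Its share of all counted reads was 0.169% ± 0.0156 (SD, n = 3) in control cells and 1.25% ± 0.146 in ramped cells.

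STF2 had 2777, 1989 and 1875 normalized counts in the control libraries and 23753, 24130 and 20238 in the ramp libraries. The groups were separated by a wide gap, with a log2 fold change of 3.38 (standard error 0.15, limma adjusted p = 3.23e-10). Per kb of coding sequence the mean level of STF2 in the ramped cells, 89047 ± 8417 normalized counts (SD, n = 3), was somewhat below that of HSP12 in the unheated cells, 96736 ± 7520.

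DDR2 had 11140, 11788 and 11434 normalized counts in the control, a narrow range, and 64357, 39541 and 56605 after the heat ramp. The ramp libraries were more scattered but all lay above the control, with a log2 fold change of 2.19 (standard error 0.18, limma adjusted p = 7.14e-08). For DDR48, the control libraries had 2494, 2002 and 1932 normalized counts and the ramp libraries 7464, 5379 and 5151. This was the smallest of the 4 increases, a log2 fold change of 1.47 (standard error 0.17, limma adjusted p = 1.80e-06). An open reading frame named YMR173W-A has a systematic name that places it next to or over DDR48. The R64 annotation used here does not list it, so an overlap could not be checked. Its level went from 321 ± 60.3 to 1025 ± 213 normalized counts (SD, n = 3). Whether the authors' counting divided reads between it and DDR48, or dropped shared reads, was not tested, and the level of DDR48 carries that limit.

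GRE1 and SIP18 moved the other way. GRE1 had 6861, 10050 and 10363 normalized counts in the control and 2915, 1739 and 2944 after the heat ramp. Control replicate 1 was the lowest of its group and still above every ramp library, and the log2 fold change was -1.86 (standard error 0.27, limma adjusted p = 2.10e-05). SIP18 had 3810, 6085 and 5534 in the control and 3270, 2050 and 2340 after the heat ramp. Here the groups came close, since control replicate 1 and heat ramp replicate 1 differed little, and the log2 fold change was -1.01 (standard error 0.25, limma adjusted p = 0.00218).

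**Figure D2:**
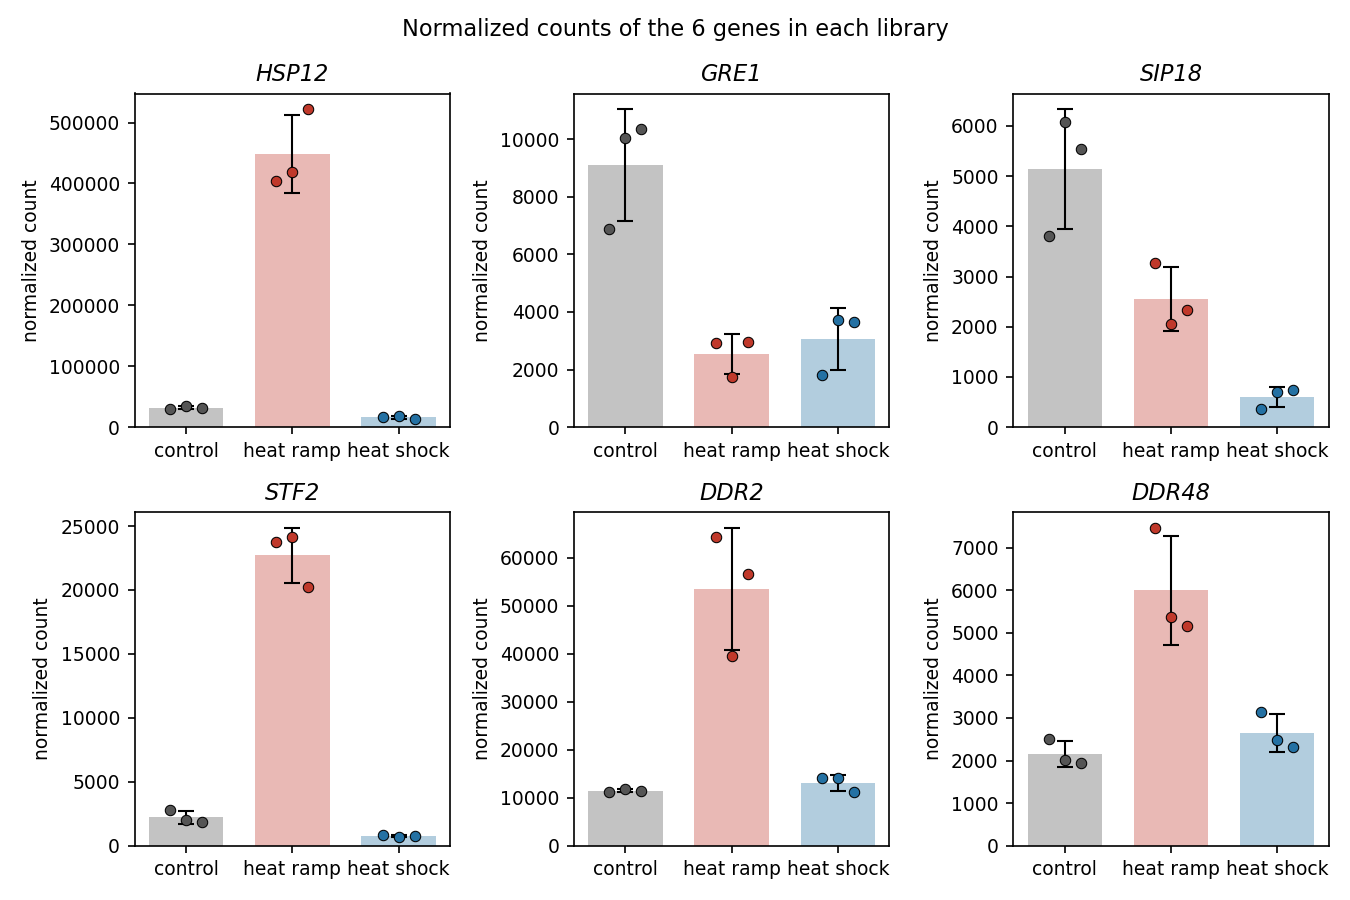
Normalized counts (vertical axes, from 0, with a scale for each gene) of the 6 genes in control, heat ramp and heat shock libraries. Points are the 3 libraries of a group, bars their mean and whiskers the SD. HSP12 reaches 404671 or more in every ramp library, and GRE1 and SIP18 are highest in the control.

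Heat shock and control were compared for cells that reached the same temperature abruptly. Of the 6 genes 4 passed the threshold and all 4 were lower, where 57.6% of all features passed, 29.9% higher and 27.7% lower. The same 4 did not overlap between the groups, as 68.1% of all features did not. Without the block, none was higher by limma, at an unadjusted p of 0.05, or by edgeR or DESeq2, and with the culture number as a block limma called 1 higher, DDR48. The median log2 fold change was -1.24 for the 6 genes and 0.04 for all features.

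SIP18 fell most. It had 368, 692 and 735 normalized counts after the heat shock, all well under its control libraries of 3810 to 6085. The log2 fold change of -3.14 (standard error 0.25, limma adjusted p = 6.48e-07) was the lowest of all 6847 features tested. GRE1, its paralog, had 1817, 3702 and 3649 normalized counts, with heat shock replicate 1 at about the level of the ramp libraries. Its log2 fold change was -1.62 (standard error 0.27, limma adjusted p = 0.000218), which ranked 41 from the lowest. Replicate 1 was the lowest library for both paralogs in the control and in the heat shock group. In the heat ramp group replicate 2 was the lowest for both, and replicate 1 was the highest for SIP18.

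STF2 had 826, 693 and 761 normalized counts after the heat shock, with no overlap with the control, and a log2 fold change of -1.52 (standard error 0.15, limma adjusted p = 3.50e-06). HSP12 had 16995, 18786 and 13660, which is below each control library, and a log2 fold change of -0.96 (standard error 0.19, limma adjusted p = 0.000808). Its share of all reads was 0.0775% ± 0.0140 (SD, n = 3), and it ranked from 43 to 64 per kb among protein-coding genes. HSP12 thus fell but remained among the abundant transcripts.

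DDR2 and DDR48 overlapped with the control. DDR2 had 14069, 14076 and 11087 normalized counts, a log2 fold change of 0.18 with a 95% interval from -0.20 to 0.57 (limma adjusted p = 0.403). DDR48 had 3151, 2481 and 2312, a log2 fold change of 0.30 with an interval from -0.06 to 0.66 (limma adjusted p = 0.134). With the culture number as a block, DDR48 passed the threshold at the same log2 fold change (limma adjusted p = 0.0330), and it was higher after the heat shock in each of the 3 cultures. Without the block, YMR173W-A had a log2 fold change of -0.39 (limma adjusted p = 0.154).

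Compared directly, heat ramp and heat shock differed for 5 of the 6 genes, all higher after the heat ramp, where 72.0% of all features passed, 35.9% higher and 36.1% lower. In normalized counts the same 5 did not overlap, as 72.1% of all features did not. As a share of all reads DDR48 did overlap, with 0.0139% to 0.0207% after the heat ramp and 0.0106% to 0.0148% after the heat shock. Total count scaling moved the median of all features by -0.74 in this comparison, so that the folds below depend on the scaling. These 5 genes stayed called under it. A log2 fold change of at least 3 was passed by STF2 and HSP12 and by 2.25% of features. STF2 was 29.8-fold higher after the heat ramp (log2 fold change 4.90, standard error 0.15, limma adjusted p = 1.31e-11), and HSP12 was 27.3-fold higher (4.77, standard error 0.19, limma adjusted p = 1.28e-10). They ranked 16 and 18 of 6847 features. SIP18 was 4.37-fold higher after the heat ramp (log2 fold change 2.13, limma adjusted p = 3.23e-06), although both treatments had lowered it. For DDR2 the log2 fold change was 2.01 and for DDR48 1.17 (limma adjusted p = 1.81e-07 and 1.92e-05). GRE1 alone did not pass, at -0.24 with a 95% interval from -0.82 to 0.34 (limma adjusted p = 0.437). Without heat shock replicate 1 it did, at -0.58 (limma adjusted p = 0.0372).

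From high to low, the order of levels was heat ramp, control, heat shock for HSP12 and STF2, with each step past the threshold. For DDR2 and DDR48 it was heat ramp, heat shock, control, and the last pair did not pass the test, except for DDR48 with the culture as a block. SIP18 ran control, heat ramp, heat shock with every step called, and for GRE1 control was highest and the treatments did not pass the test.

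**Figure D3:**
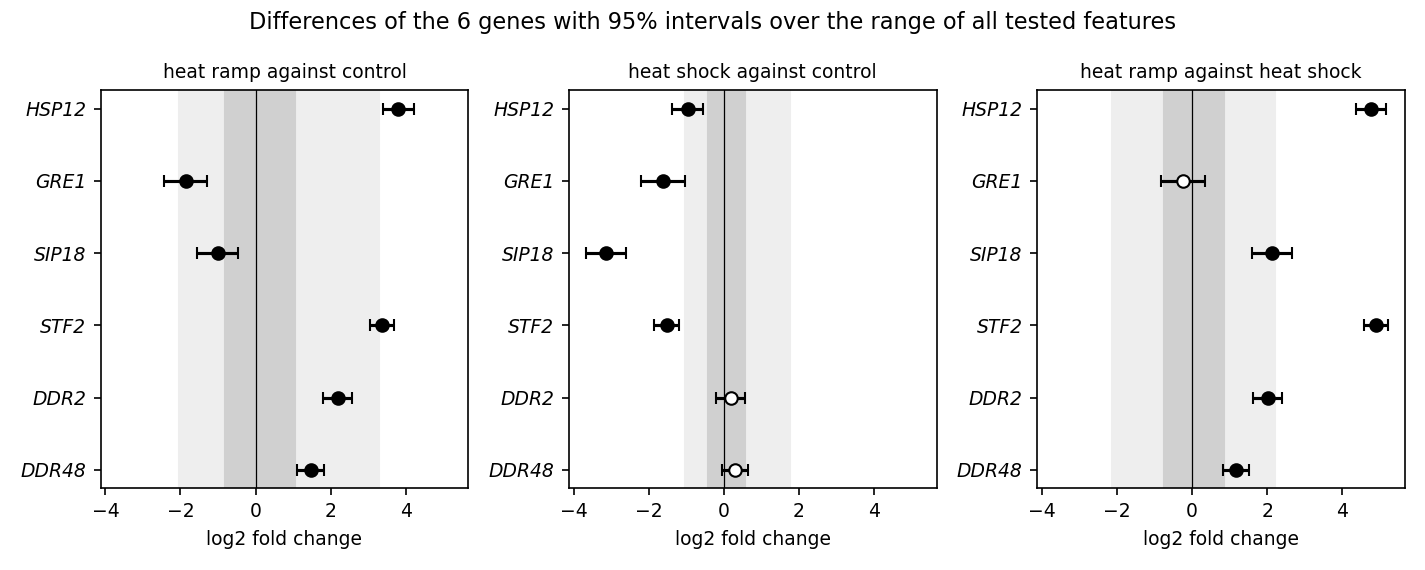
Log2 fold changes (horizontal axes) of the 6 genes from limma in each comparison, with 95% intervals. Filled points passed an adjusted p-value of 0.05 and open points did not, and the light and dark bands cover the 5th to 95th and the 25th to 75th percentiles of all 6847 features. After the heat shock SIP18 lies at -3.14, outside the light band.

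Together the 6 genes held 0.328% ± 0.0293 of all reads in control cells, 1.496% ± 0.131 in ramped cells and 0.172% ± 0.0235 in shocked cells (SD, n = 3). Of the reads of the 6 genes, HSP12 supplied 51.5% ± 1.25, 83.6% ± 3.20 and 44.8% ± 2.14 in the same order. Per kb of coding sequence, the control order was HSP12 (96736 normalized counts), DDR2 (61580), SIP18 (21428), GRE1 (17932), STF2 (8682) and DDR48 (1657). The SDs of SIP18 and GRE1 were 4944 and 3822, but within each control library SIP18 was the higher, with ratios of GRE1 to SIP18 per kb of 0.852, 0.782 and 0.887. After the heat ramp STF2 moved up to 89047, behind HSP12 and DDR2, and after the heat shock DDR2 (70310 ± 9266) was above HSP12 (49941 ± 7884).

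Several of these genes have a paralog, which allows a comparison within each library that no scaling can change. GRE1 and SIP18 share 35.4% of 79 aligned residues. The ratio of GRE1 to SIP18 reads was 1.80, 1.65 and 1.87 in the control. It was 0.891, 0.848 and 1.26 in ramped cells and 4.94, 5.35 and 4.97 in shocked cells, so that the ranges of the 3 groups did not overlap. The mean log2 ratio was 0.83 ± 0.09 for control, -0.024 ± 0.31 for ramped and 2.35 ± 0.064 for shocked cells (SD, n = 3). Each pair of groups gave a two-sided exact permutation p = 0.1, the smallest that 3 against 3 can give, and p = 0.133 adjusted over 12 comparisons of ratios. All permutation tests of ratios treated the libraries as independent and did not use their pairing by culture.

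TMA10, a ribosome-associated protein and the paralog of STF2 (64.3% of 84 aligned residues identical), rose with it after the heat ramp, from 1913 ± 487 to 33041 ± 2970 normalized counts (SD, n = 3), a log2 fold change of 4.14 (limma adjusted p = 2.20e-09). Like STF2 it fell after the heat shock, to 1005 ± 419 (-0.97, limma adjusted p = 0.00315). The ratio of STF2 to TMA10 reads was 1.14, 1.09 and 1.27 in the control and 0.656, 0.795 and 0.622 after the heat ramp, ranges that did not overlap (exact permutation p = 0.1). TMA10 therefore rose by more than its paralog in every ramp library relative to every control library. After the heat shock the ratio was 0.556, 0.849 and 1.07, also below the control without overlap (exact permutation p = 0.1). Ramp and shock overlapped in this ratio (exact permutation p = 0.6).

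HOR7, the paralog of DDR2 (45.8% of 59 aligned residues identical), is an osmotic stress gene. From 43556 ± 4966 normalized counts in control cells it rose to 193667 ± 20464 with the heat ramp (log2 fold change 2.15, limma adjusted p = 5.80e-07) and to a lesser extent with the heat shock, to 91565 ± 19017 (1.06, limma adjusted p = 0.00106). The ratio of DDR2 to HOR7 reads was 0.255, 0.243 and 0.297 in the control, and in the heat shock libraries it was 0.133, 0.143 and 0.158, without overlap (exact permutation p = 0.1). Ramp and control overlapped in this ratio (exact permutation p = 0.9).

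**Figure D4:**
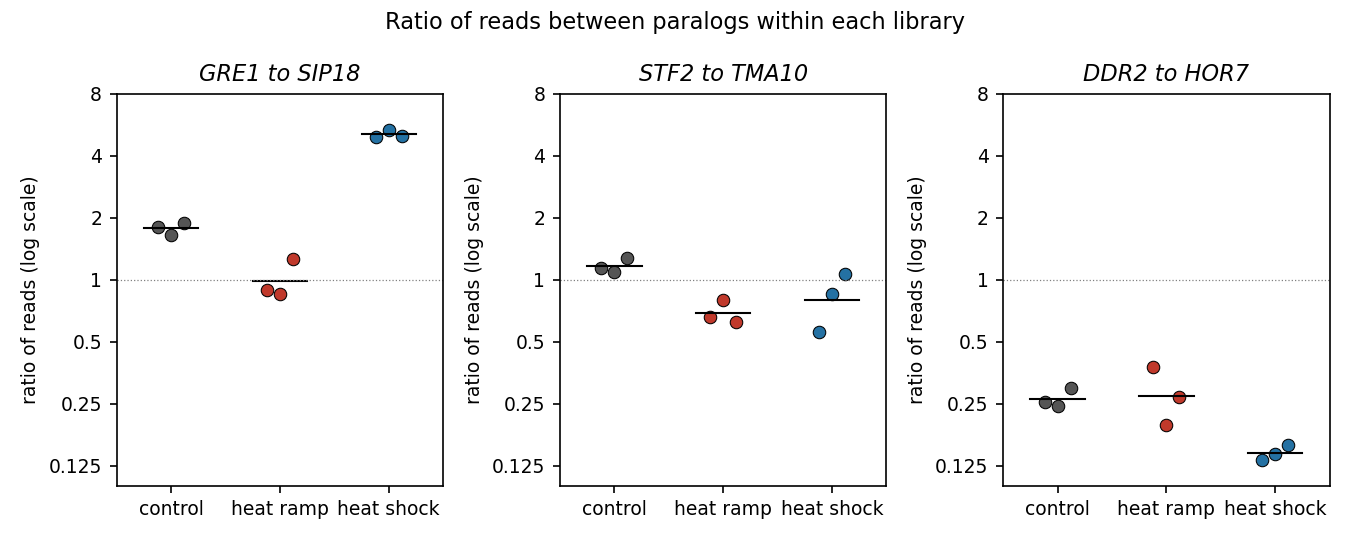
Ratio of reads between paralogs (vertical axes, log scale) in each library of the control, heat ramp and heat shock groups, with the geometric mean of a group as a line and a dotted line at 1. The ratio of GRE1 to SIP18 is between 4.94 and 5.35 after the heat shock and between 0.848 and 1.26 after the heat ramp.

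STF2 acts with the inhibitors of the mitochondrial ATP synthase, INH1 and STF1. INH1 had log2 fold changes of -0.32 in ramped and 0.38 in shocked cells (limma adjusted p = 0.0317 and 0.0195), or -1.23 and 0.21 under total count scaling. Leaving out control replicate 2 or 3 or heat ramp replicate 3 ended the first call of INH1 (adjusted p up to 0.140), and leaving out control replicate 1 or heat shock replicate 2 the second (up to 0.0986). STF1 had 0.66 after the heat ramp (limma adjusted p = 0.00280), or -0.25 under total count scaling, and fell by 1.05 on the log2 scale after the heat shock (limma adjusted p = 0.000196). In the heat ramp both values were smaller than the 3.38 of STF2.

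As the wider setting, 29 other genes commonly described as targets of Msn2 and Msn4 were counted, a list chosen with earlier results of these data known. After the heat ramp 26 rose and 1 fell, where 39.0% and 39.5% of all features did, with a median log2 fold change of 3.07 against -0.01. The highest were TSL1, a subunit of the trehalose synthase complex (5.93), the small heat shock protein gene HSP26 (4.90) and the phosphoglucomutase gene PGM2 (4.28), and GPP2, a glycerol phosphatase, fell (-1.14). HSP12 and STF2 lay above the median of this list, and DDR2 and DDR48 below it. After the heat shock 1 of the 29 rose, SPI1, which encodes a cell wall protein (0.71), and 13 fell, against 29.9% and 27.7% of all features, with a median of -0.38. Without control replicate 3 SPI1 was not called (0.62, limma adjusted p = 0.0624), and 0 to 2 of the list were higher with 1 library left out. PAI3 fell most (-1.93), followed by HSP26 (-1.32) and the transketolase gene TKL2 (-1.28). SIP18, at -3.14, was below all 29. In the direct comparison 27 of them were higher after the heat ramp and 1 was lower, against 35.9% and 36.1% of all features.

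Of 9 transcripts of regulators, 4 rose and 4 fell in ramped cells, a share near the 39.0% and 39.5% of all features, while in shocked cells 5 fell, where 27.7% of all features did, and 4 did not pass. Under total count scaling HOG1 reversed in the heat ramp (-0.32) and the rises of GIS1 and RIM15 were not called (0.10 and 0.084). In the heat shock the call of GIS1 was lost without control replicate 1 or 2 or heat shock replicate 2 or 3 (adjusted p up to 0.0859), and that of YAP1 without heat shock replicate 3 (0.0657). MSN4 fell in both treatments (-1.39 and -1.52), as did HOT1 (-1.90 and -0.91), which encodes a transcription factor acting with Hog1 and lies next to DDR48. MSN2 had -0.24 and 0.30 and passed in neither (limma adjusted p = 0.104 and 0.0599). Transcript levels of a regulator say nothing of the activity of its protein.

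Of the other 70 proteins that met the sequence definition of a hydrophilin, some moved as HSP12 did, among them TMA10 and ROQ1, which were called higher in ramped cells and lower in shocked cells. More fell than rose. After the heat ramp 16 of the 70 genes rose and 42 fell, against 39.0% and 39.5% of all features, with a median log2 fold change of -0.61. Those that rose most were TMA10, ROQ1 (YJL144W), which encodes a ubiquitin ligase regulator (3.46), and the small heat shock protein gene HSP42 (2.96). The lowest were NSR1, a nucleolar protein of ribosome assembly (-3.25), SAP30, a subunit of a histone deacetylase complex (-2.59), and LSO2, a ribosome-associated protein (-2.32). After the heat shock 8 rose and 37 fell, against 29.9% and 27.7% of all features, with a median of -0.41. The highest were the ribosomal protein genes RPL37A (1.11) and RPL37B (1.06), followed by YGL188C-A (0.72), and the lowest SPG4 (-2.001), OM45 (-1.93) and UIP4 (-1.82). SPG4 is a gene of stationary phase survival and OM45 encodes a protein of the mitochondrial outer membrane.

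The features most like each gene were found by the root mean square distance over the 9 libraries between log2 profiles, each taken relative to its own control mean. For HSP12 these were 3 genes of glycolysis, TDH1 (distance 0.158), PGK1 (0.242) and ENO2 (0.297). For STF2 they were GPM2 (0.263), ENO1 (0.290) and EGO4 (0.339), and the distance between HSP12 and STF2 was 0.495. GRE1 was closest to PDC6, a minor pyruvate decarboxylase (0.214), to SPG4 (0.301) and to MSN4 (0.420). SIP18 had no close match, the nearest being ECM13 at 0.602, PAH1 at 0.718 and ZDS1 at 0.737. DDR2 was nearest to PIB1 (0.166), MF(ALPHA)2 (0.170) and BMH1 (0.175), and DDR48 to YSC83 (0.106), PCL8 (0.140) and CPD1 (0.140). GRE1 and SIP18 lay 1.02 apart, and DDR2 and DDR48 0.465.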

How the data were processed

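Per the labels and the study's methods, the authors isolated poly(A)+ RNA, made ScriptSeq libraries, sequenced 50 bp single-end reads, trimmed them with Trimmomatic, aligned them to SacCer3 with Bowtie2 in sensitive local mode and normalized with DESeq2. The counting tool and its strand setting are not given in the sources used here. For RNA integrity the paper gives only a common upper limit for all samples, and its part in the results was not tested. The values deposited for each sample are a signal, counts of reads per feature divided by the library's size factor. In every library 100% of values were whole multiples of the value of 1 read (tolerance 0.01), so reads were recovered. The deposited series tables hold the authors' own DESeq2 comparisons and were not used. SacCer3 is the R64 assembly, of which RefSeq's copy gave positions, promoters and translated coding sequences for 6048 of 7126 identifiers.

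Log2(normalized count + 1) of the 6847 features with a mean of at least 10 was fitted with limma (version 3.58.1, trended prior) over all 9 libraries with the group as factor, two-sided, with Benjamini-Hochberg adjustment over all features and a threshold of 0.05. The step was tested on simulated counts with a small share of changed genes, a fixed dispersion and no culture effect. These settings differ from the data, so that test checks only the working of the code. Errors of levels are SDs. Alternatives were pseudocounts of 0.1 and 5, no filter, protein-coding genes only, TMM and total count scaling, only the groups compared, edgeR 4.0.16 and DESeq2 1.42.0 on recovered reads, the culture number as a block, and each library left out. The study's supplementary file states that each numbered culture gave a control, a heat ramp and a heat shock sample, so that equal numbers pair samples. Deviations of same-numbered libraries of different groups correlated from -0.20 to 0.29 across features. Those of differently numbered libraries correlated from -0.18 to 0.17. The members, lists and motifs were chosen with earlier results of these data known. Named are the 6 genes, their paralogs, the listed inhibitors and regulators, the 3 highest and 3 lowest past the threshold of each longer list, the neighbours, and the 3 features nearest in profile. YMR173W-A was named after its values were seen.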

Additional observations from a re-analysis of the deposited data

How the results depend on the processing

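Of 342 refits of the 18 log2 fold changes of the 6 genes (19 alternatives each), 338 kept direction and side of the threshold. The exceptions concern the smallest differences. With the replicate block, DDR48 after the heat shock passed (0.30, adjusted p = 0.0330), which makes 1 gene higher there, and the block changed no other call of the 6 genes. For GRE1 in heat ramp against heat shock, total count scaling gave -0.98 (adjusted p = 0.00254) and so 1 gene lower, and leaving out 1 library gave -0.58 to 0.011, with 0 to 1 genes lower. Without heat shock replicate 1 it was called, and without heat ramp replicate 2 it had the opposite sign (0.011, adjusted p = 0.971).

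Total count scaling moved the median of all features by -0.91 in heat ramp against control, -0.17 in heat shock against control and -0.74 between the treatments. In heat ramp against control it gave 1326 higher and 4384 lower features (2670 and 2705 otherwise), and 1184 higher and 4096 lower in heat ramp against heat shock. The log2 fold changes after the heat ramp became 2.89 for HSP12, 2.46 for STF2, 1.28 for DDR2, 0.56 for DDR48, -2.78 for GRE1 and -1.93 for SIP18, all still called. The same scaling reversed STF1 (-0.25) and HOG1 (-0.32) in heat ramp against control, and MSN4 (-0.61), HSF1 (-0.11) and HOG1 (-0.42) in heat ramp against heat shock. On the recovered reads edgeR called 2560 features higher and 2823 lower in heat ramp against control, and DESeq2 2716 and 2672, and both called the 6 genes as limma did in each comparison. With at least 412 reads in every library, precision of the 6 genes is set by the 3 libraries per group.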

Other observations

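The annotated neighbours of the 6 genes (the nearest on each side and the next) were also read, 20 in all, for DDR2 without the next one on the side of SPE2. After the heat ramp 8 were higher, 8 lower and 4 not called, near the 39.0% and 39.5% of all features. After the heat shock 3 were higher, 12 lower and 5 not called, against 29.9% and 27.7% of all features. IES1, a subunit of a chromatin remodelling complex and the next gene after HSP12, had a log2 fold change of -1.002 after the heat ramp where HSP12 had 3.81. YFL015C, which lies on the other side of HSP12, rose by 4.26, from between 3.54 and 10.9 normalized counts in the control libraries to between 111 and 146. ECT1 and SEC9, on either side of STF2, fell after the heat ramp (-1.14 and -0.90).

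The stretch of chromosome XIII with DDR48 and SIP18 showed opposite directions within a few genes. Along the chromosome HOT1, DDR48, PAI3, SIP18 and YMR175W-A had log2 fold changes of -1.90, 1.47, -0.27, -1.01 and 0.46 after the heat ramp, of which those of PAI3 and YMR175W-A did not pass the threshold. After the heat shock they had -0.91, 0.30, -1.93, -3.14 and -2.18, and only DDR48 was not lower. YMR175W-A, which lies 58 bases from SIP18, had between 2 and 5 reads after the heat shock, about the limit of 3 reads, and no more than 39.0 normalized counts in any library. Whether its counts come from SIP18 transcripts was not tested.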
